A study of Schmidtea mediterranea with 6 samples.

Results

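The prog-1 family was followed in X1 cells of the planarian Schmidtea mediterranea as 4 gene models, which are prog-1 (SMESG000024882.1), prog-1-5 (SMESG000076142.1), prog-1-6 (SMESG000069796.1) and prog-1-10 (SMESG000034829.1). They are 4 of the 30917 gene models counted in every library, and 4 of the 14700 that passed the filter on low counts. They were chosen by name and by their lower counts after exoc3(RNAi) in these same libraries, so their difference between the groups is a description. The calls and p-values they have in the fit over all genes are printed with it and are not independent evidence. Names were paired with gene models through the lists the study supplied.

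X1 is the flow cytometry fraction, sorted from dissociated worms by DNA and cytoplasmic stains, that is rich in dividing stem cells. The study asked how stem cells and their early progeny change when Smed-exoc3, the planarian gene related to an exocyst subunit, is depleted. The exoc3(RNAi) group had 3 libraries from animals injected with double-stranded RNA (dsRNA) against Smed-exoc3, and the gfp(RNAi) group had 3 libraries from animals injected with dsRNA against gfp, a jellyfish sequence the planarian does not carry. Injections in each group ran over 3 consecutive days in 2 rounds set 12 days apart, in starved asexual animals 5 to 5.5 mm long. That spacing is from the study's methods, while its results text places 12 days after the last round. The cells were taken at the end of the protocol, when exoc3(RNAi) animals showed head regression and shrinkage. RNAi of this kind acts in the whole animal and not only in the sorted cells. How many worms were combined for each sort is not given in the sources used here.

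Planarians replace their epidermis from stem cells, the neoblasts, which leave the cycle as early progenitors and then mature on the way to the surface. Early progenitors of this lineage are known for prog genes, later ones for the agat genes, and the prog-1 transcript is a standard label of the early state. The molecular function of the prog-1 proteins is not annotated in the lists used here, so the members are described by this role as markers.

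Short designed sequences are shown for the family's founding gene and for the depleted gene, as the study named them. They were not matched to the gene models here. They are forward primers, given 5′ to 3′ as designed. The primer of prog-1 was designed for RT-qPCR, and that of Smed-exoc3 for the template of the injected dsRNA. Neither primer entered the counts.
prog-1 RT-qPCR forward primer: gtctcccgccaaatcaagta
Smed-exoc3 dsRNA template forward primer: tcacgagcagataagtgact

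The libraries held 28897363 to 37525894 assigned reads and 18686 to 19115 genes with a read. The targeted gene, Smed-exoc3, had 31.9, 31.2 and 42.5 CPM in exoc3(RNAi) replicates 1 to 3, against 70.2, 74.0 and 72.7 CPM in gfp(RNAi) replicates 1 to 3. CPM is edgeR's normalised read count, the reads of a gene as a proportion of a library total scaled by TMM factors, which makes libraries of unlike composition comparable. Smed-exoc3 was therefore at 44.1%, 43.1% and 58.7% of its gfp(RNAi) mean, highest in replicate 3. That library also stood apart over all genes. In a principal component analysis the first component (68.9% of the variance) separated the groups. On it the gfp(RNAi) libraries lay at 26.6 to 28.7. Farthest from them was exoc3(RNAi) replicate 3 at -33.6, against -24.5 for each of exoc3(RNAi) replicates 1 and 2. On the second component (11.1%) exoc3(RNAi) replicate 3 lay at -20.7, against 10.6 and 13.8 for exoc3(RNAi) replicates 1 and 2. The fold change, spread, read ratios and nearest genes of prog-1, which turn on this library, are given with and without it. The 9 neoblast markers listed were all detected, with summed levels of 9525 to 10483 CPM in exoc3(RNAi) and 12192 to 12393 CPM in gfp(RNAi), as the label of the sort requires.

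In exoc3(RNAi) cells prog-1-5, prog-1-6 and prog-1-10 stood at less than their gfp(RNAi) level by a log2 difference of more than 1, while prog-1 itself differed less and varied more. All 4 members lay below the threshold of adjusted p = 0.05 in the edgeR quasi-likelihood fit over all genes, in the direction of lower counts in exoc3(RNAi). Over all 14700 genes tested, 53% were called, with 27.1% lower and 25.8% higher. A call together with a log2 fold change below -1, which 3 of the 4 members had, was found for 1.35% of all genes. The members also had no exoc3(RNAi) library as high as any gfp(RNAi) library, which held in this direction for 30.7% of all genes tested and in either direction for 60.8%. Since the members were chosen on this contrast, nothing is read from these counts. The study describes such markers as expressed in neoblasts too, and reports a larger X1 fraction after exoc3(RNAi). In sorted bulk cells, a changed mix of cells in the sort and less prog-1 RNA per progenitor or per neoblast cannot be told apart.

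prog-1-5 had 91.5, 94.3 and 83.8 CPM in exoc3(RNAi) replicates 1 to 3, against 188.9, 185.2 and 187.8 CPM in gfp(RNAi) replicates 1 to 3. Every exoc3(RNAi) library lay far below the gfp(RNAi) libraries, which were nearly equal to one another. The means were 89.9 ± 5.44 CPM in exoc3(RNAi) and 187.3 ± 1.91 CPM in gfp(RNAi) (SD, n = 3 each), a log2 fold change of -1.06 (SE 0.04), with exoc3(RNAi) over gfp(RNAi).

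prog-1-6 had 15.4, 16.2 and 14.9 CPM in exoc3(RNAi), against 37.2, 35.2 and 35.4 CPM in gfp(RNAi). It had the fewest reads of the members, with 475 to 586 reads per exoc3(RNAi) library and 1087 to 1192 per gfp(RNAi) library, and its libraries still separated without overlap. The means of 15.5 ± 0.660 CPM in exoc3(RNAi) and 35.9 ± 1.13 CPM in gfp(RNAi) (SD, n = 3 each) differed by -1.22 on the log2 scale (SE 0.05), more than those of any other member.

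prog-1-10 had 41.7, 41.7 and 37.6 CPM in exoc3(RNAi), against 96.0, 92.0 and 87.8 CPM in gfp(RNAi). The groups again did not overlap, and replicate 3 was the lowest library of each. The means were 40.3 ± 2.40 CPM in exoc3(RNAi) and 92.0 ± 4.11 CPM in gfp(RNAi) (SD, n = 3 each), with a log2 fold change of -1.19 (SE 0.05).

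prog-1, the founding member and the usual early progenitor label, had 30.7, 31.4 and 48.3 CPM in exoc3(RNAi), against 58.2, 52.9 and 52.3 CPM in gfp(RNAi). Replicates 1 and 2 of exoc3(RNAi) were close to each other, while replicate 3 came near the lowest gfp(RNAi) library without reaching it. As a share of the gfp(RNAi) mean the exoc3(RNAi) libraries stood at 56.4%, 57.7% and 88.6%. The means of 36.8 ± 9.94 CPM in exoc3(RNAi) and 54.5 ± 3.22 CPM in gfp(RNAi) (SD, n = 3 each) gave a log2 fold change of -0.56 (SE 0.13). Without exoc3(RNAi) replicate 3 the log2 fold change of prog-1 was -0.81. A setting that lets single genes keep an extreme dispersion (edgeR's robust option) left that log2 fold change at -0.56 but took prog-1 out of the called genes, with an edgeR adjusted p of 0.093, so 3 of the 4 members were called there.

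**Figure D1:**
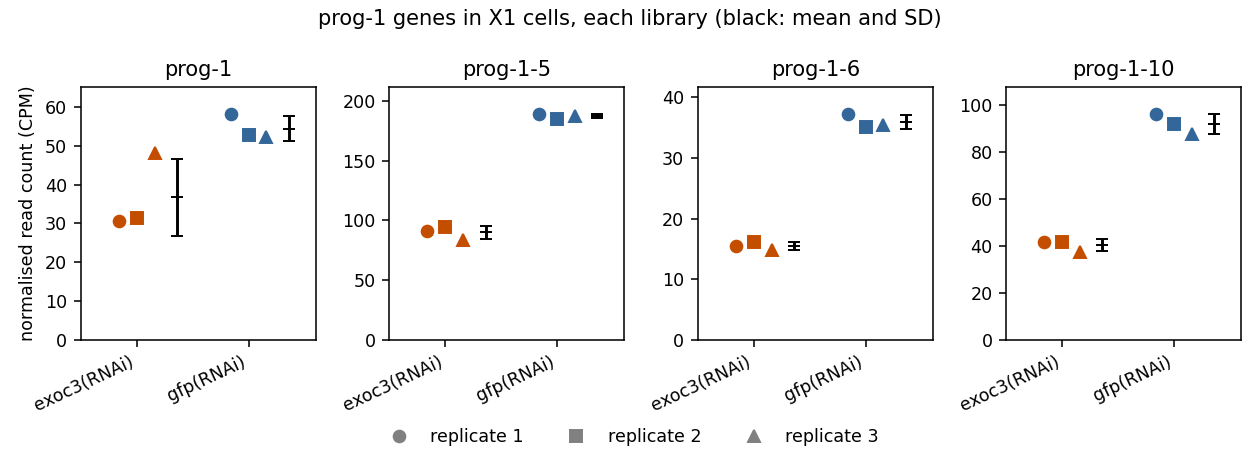
Normalised read counts (CPM, linear axes from 0) of the 4 prog-1 genes in each library, exoc3(RNAi) left of gfp(RNAi), where points are libraries labelled by replicate and bars are means ± SD of 3. The exoc3(RNAi) libraries lie below the gfp(RNAi) libraries in every panel, and in the prog-1 panel replicate 3 sits at 48.3 CPM, just under the lowest gfp(RNAi) library at 52.3 CPM.

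The members came from a list kept by a call in these libraries, and such a call depends on spread. The spread between libraries was therefore not free of the choice of members. It was larger for prog-1 than for the other members when all 3 exoc3(RNAi) libraries were used. The SD of its log2 CPM was 0.37 over the exoc3(RNAi) libraries and 0.08 over the gfp(RNAi) libraries. Of the 500 tested genes nearest to it in mean CPM, 1 had a larger SD in exoc3(RNAi) and 35 had a larger SD in gfp(RNAi), with medians of 0.06 and 0.04. The coefficient of variation of prog-1 was 27.0% in exoc3(RNAi) and 5.92% in gfp(RNAi), while counting error alone gives at most 3.29%. Without exoc3(RNAi) replicate 3 the SD of prog-1 in exoc3(RNAi) was 0.02 (n = 2) and its coefficient of variation 1.62%, with 302 of the 500 neighbours above it.

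The other members varied far less in exoc3(RNAi), with an SD of log2 CPM of 0.09 for prog-1-5, 0.06 for prog-1-6 and 0.09 for prog-1-10. Among their own 500 neighbours in mean CPM, 82, 258 and 84 genes had a larger SD in exoc3(RNAi), in the same order of members. In gfp(RNAi) the SD was 0.01 for prog-1-5, 0.04 for prog-1-6 and 0.06 for prog-1-10, with 415, 297 and 60 of the neighbours above it. The 3 libraries of prog-1-6 thus varied about as much as counting alone allows, with coefficients of variation of 4.26% in exoc3(RNAi) and 3.14% in gfp(RNAi) and a counting value of at most 4.59%.

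The spread of prog-1 came from 1 library. Its level in exoc3(RNAi) replicate 3 was 1.55-fold the mean of replicates 1 and 2 (a log2 difference of 0.64), and 46 of the 7701 genes with at least 10 CPM had a larger positive difference. The other members went the opposite way in the same library, with log2 differences of -0.15 for prog-1-5, -0.09 for prog-1-6 and -0.15 for prog-1-10. Smed-exoc3 itself was 1.35-fold higher there (a log2 difference of 0.43), and no member but prog-1 was high where the targeted transcript was high. Among the 5 muscle and matrix markers, 2 were also high in that library. The myosin heavy chain gene MHC-A had 47.9, 46.8 and 57.9 CPM in exoc3(RNAi) replicates 1 to 3, against 30.9, 31.6 and 31.0 CPM in gfp(RNAi), and a collagen IV gene model (SMESG000016766.1) had 10.8, 11.1 and 16.2 CPM in exoc3(RNAi), against 7.99, 6.60 and 7.48 CPM in gfp(RNAi). For the other 3 markers exoc3(RNAi) replicate 3 was not the highest library of its group. The part of these genes and of the Smed-exoc3 level in the prog-1 value of this library was not tested.

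**Figure D2:**
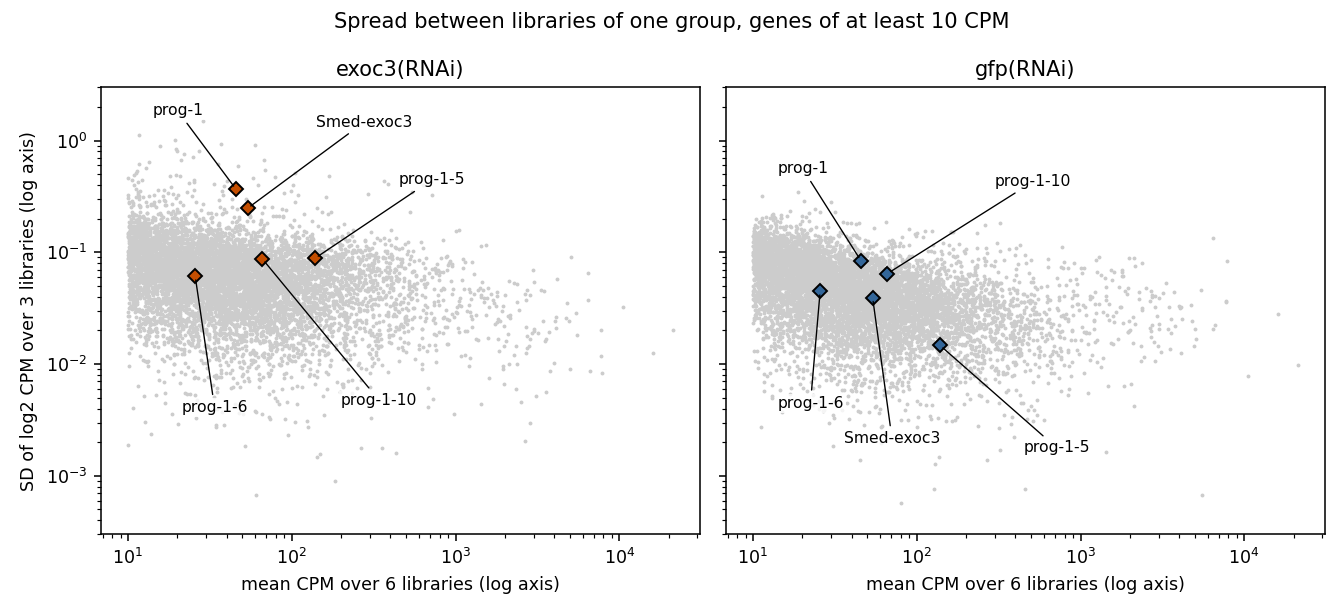
SD of log2 CPM over the 3 libraries of each group (log axis) against mean CPM over all libraries (log axis), for genes of at least 10 CPM in grey, of which 1 gene falls below the axis in 1 panel, with the prog-1 genes and Smed-exoc3 as diamonds, exoc3(RNAi) left and gfp(RNAi) right. In exoc3(RNAi) prog-1 lies at 0.37 and Smed-exoc3 at 0.25, above nearly all genes of like level, while the other 3 members lie at 0.06 to 0.09 within the grey cloud.

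The members' reads can also be set against one another within a library, where the scaling of libraries cancels. Of all reads of the 4 genes, prog-1 took 17.1% (95% exact binomial interval 16.2% to 18.0%), 17.1% (16.1% to 18.2%) and 26.2% (25.1% to 27.2%) in exoc3(RNAi) replicates 1 to 3, against 15.3% (14.7% to 15.9%), 14.5% (13.8% to 15.1%) and 14.4% (13.8% to 15.0%) in gfp(RNAi) replicates 1 to 3. The intervals cover counting error only. The share was higher in every exoc3(RNAi) library than in any gfp(RNAi) library, by a small margin in replicates 1 and 2 and a wide one in replicate 3.

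prog-1 had 0.333 to 0.576 reads per read of prog-1-5 in exoc3(RNAi), against 0.279 to 0.308 in gfp(RNAi). Its ratio to prog-1-6 was 1.94 to 3.25 in exoc3(RNAi) and 1.48 to 1.56 in gfp(RNAi), and its ratio to prog-1-10 was 0.736 to 1.29 in exoc3(RNAi) and 0.575 to 0.606 in gfp(RNAi). The upper end of each exoc3(RNAi) range is replicate 3 alone. In replicates 1 and 2 the ratio was 0.336 and 0.333 to prog-1-5, 1.99 and 1.94 to prog-1-6, and 0.736 and 0.754 to prog-1-10, still above every gfp(RNAi) library.

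Ratios without prog-1 were also compared. The ratio of prog-1-5 to prog-1-6 was 5.64 to 5.93 in exoc3(RNAi), against 5.07 to 5.31 in gfp(RNAi), and that of prog-1-5 to prog-1-10 was 2.19 to 2.26 in exoc3(RNAi), against 1.97 to 2.14 in gfp(RNAi). Of the 6 pairs, 5 had ranges that did not overlap, and the remaining pair was prog-1-6 to prog-1-10, with 0.369 to 0.396 in exoc3(RNAi) and 0.382 to 0.403 in gfp(RNAi). Transcript lengths enter these ratios, so they give no order of expression between genes.

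**Figure D3:**
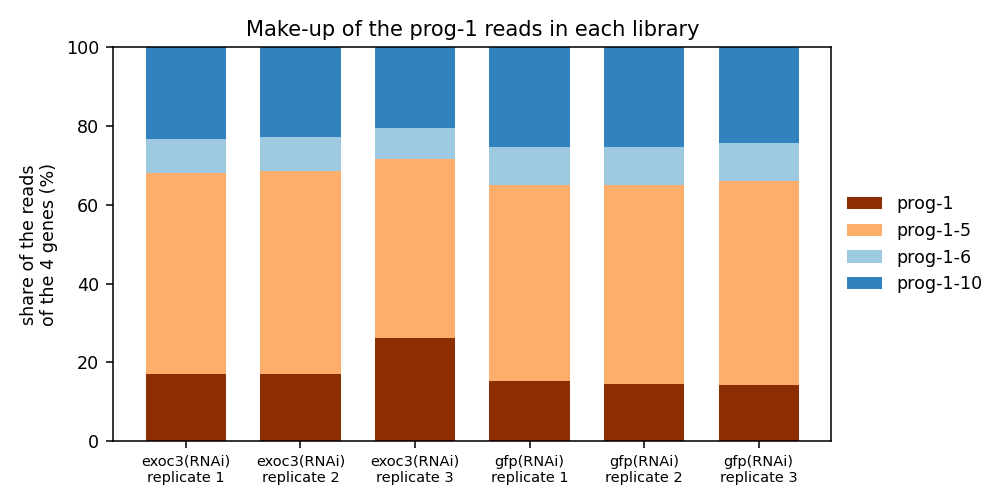
Percent of the reads of the 4 prog-1 genes taken by each gene, in every library, with exoc3(RNAi) libraries left of gfp(RNAi) libraries. The prog-1 share is 17.1%, 17.1% and 26.2% in the exoc3(RNAi) libraries and 14.4% to 15.3% in the gfp(RNAi) libraries.

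Summed over the 4 genes, the family had 179.4, 183.6 and 184.5 CPM in exoc3(RNAi), against 380.3, 365.2 and 363.4 CPM in gfp(RNAi). The sum in each exoc3(RNAi) library was 48.5% to 49.9% of the gfp(RNAi) mean, so the high prog-1 count and the lower counts of the other members in replicate 3 offset each other. Mean sums were 182.5 ± 2.74 CPM in exoc3(RNAi) and 369.6 ± 9.30 CPM in gfp(RNAi) (SD, n = 3 each), a ratio of 0.494. Without prog-1 the sums averaged 145.7 ± 8.37 CPM in exoc3(RNAi) and 315.2 ± 6.08 CPM in gfp(RNAi) (SD, n = 3 each), a ratio of 0.462.

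Within each group the libraries ranked alike for most members. The highest gfp(RNAi) library was replicate 1 for 4 of the 4 members, against 36.6% of all genes tested. For prog-1-5 the margin was small, with 188.9 CPM there and 187.8 CPM in gfp(RNAi) replicate 3. The lowest exoc3(RNAi) library was replicate 3 for 3 of the 4 members, against 42.6% of all genes tested, with prog-1 the exception. Neither order is particular to the members. Among the 20 genes of the study's epidermal list, members included, the counts were 14 and 15. The neoblast markers had replicate 3 lowest for 9 of 9 genes.

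The rest of the study's epidermal list was set beside the members. The study took a published set of epidermal progenitor markers and kept those that changed in these libraries, so the direction of the 20 listed genes is not independent evidence. Its other genes named after prog-1 are prog-1-7, with 104.7, 103.4 and 96.4 CPM in exoc3(RNAi) against 202.4, 187.8 and 184.6 CPM in gfp(RNAi), and prog-1-4, with 29.3, 30.1 and 25.4 CPM in exoc3(RNAi) against 55.4, 48.2 and 51.4 CPM in gfp(RNAi). In both, exoc3(RNAi) replicate 3 was the lowest library, unlike in prog-1. Their log2 fold changes were -0.92 (SE 0.04) for prog-1-7 and -0.87 (SE 0.07) for prog-1-4.

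Of the 14 remaining genes of the list, which include the late progenitor enzymes agat-1, agat-2 and odc-1, 14 were called lower and 0 higher. Their median log2 fold change was -1.05, against -1.12 for the 4 members and 0.02 for all genes tested. The largest decrease was that of pmp-4, one of the genes named as post-mitotic progenitor genes, at 25.6 ± 2.24 CPM in exoc3(RNAi) and 87.1 ± 1.64 CPM in gfp(RNAi) (SD, n = 3 each), a log2 fold change of -1.77 (SE 0.05). The smallest was that of p53, a transcription factor gene active in planarian stem cells and their progeny, at 179.5 ± 13.9 CPM in exoc3(RNAi) and 214.5 ± 2.21 CPM in gfp(RNAi) (SD, n = 3 each), a log2 fold change of -0.26 (SE 0.05). Counted from the most lowered of the 20, prog-1-6 came at position 3, prog-1-10 at 4, prog-1-5 at 9 and prog-1 at 19, with only p53 after it. Without exoc3(RNAi) replicate 3 prog-1 was at position 18.

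Across the 20 genes, 4 were higher in exoc3(RNAi) replicate 3 than the mean of replicates 1 and 2, namely prog-1, p53, SV2-RP and SLC7a11. For p53 that log2 difference was 0.19, and 15 of its 500 neighbours in mean CPM had a larger one. Over all genes tested 6860 of 14700 were higher in that library.

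**Figure D4:**
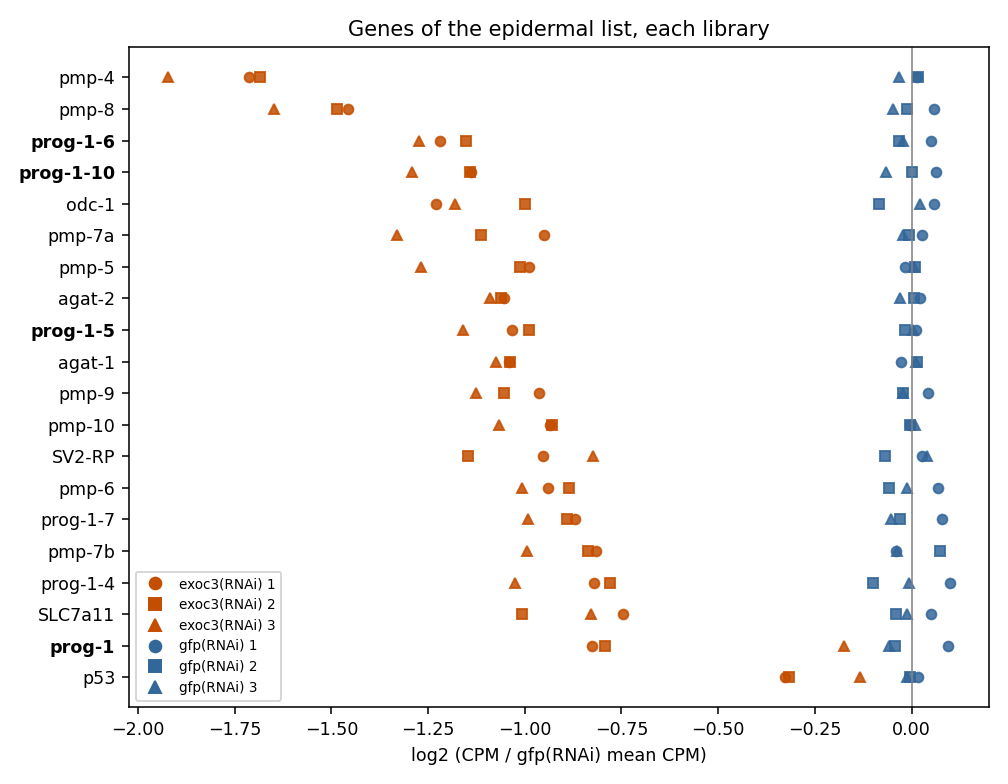
Log2 of CPM over the gfp(RNAi) mean CPM in each library, for the 20 genes of the study's epidermal list. Genes are ordered by log2 fold change from the most lowered, and the names of the 4 members are in bold. In exoc3(RNAi) prog-1-6 lies at -1.27 to -1.15 and prog-1-10 at -1.29 to -1.14, against -1.92 to -1.68 for pmp-4. In exoc3(RNAi) replicates 1 to 3 prog-1 lies at -0.83, -0.79 and -0.17, next to p53 at -0.33, -0.32 and -0.13.

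The family was also set against other cell states in the same libraries. Per 1000 CPM summed over the 9 neoblast markers, the family had 17.2, 17.5 and 19.4 CPM in exoc3(RNAi), against 30.7, 29.6 and 29.8 CPM in gfp(RNAi), without overlap between the groups. Of those markers 7 were called lower and 2 higher, with a median log2 fold change of -0.18. The study listed mostly genes changed in these libraries, so the calls of the neoblast markers are not independent evidence. Per 1000 CPM of agat-1, agat-2 and odc-1, the family had 337, 344 and 354 CPM in exoc3(RNAi), against 344, 329 and 331 CPM in gfp(RNAi). These ranges overlapped between the groups, unlike those against the neoblast markers. In both scalings the highest exoc3(RNAi) value was that of replicate 3, where prog-1 was high. The family was not scaled in this way without prog-1.

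Markers of tissues outside the epidermal and stem cell lists were counted because a sort can carry such cells. They too were taken from genes the study listed mostly because they changed in these libraries. That they were called is therefore not independent evidence. The 4 neuron markers summed to 419.6 to 442.6 CPM in exoc3(RNAi) and 413.7 to 421.0 CPM in gfp(RNAi), with 2 called lower and 2 higher. The 5 muscle and matrix markers summed to 108.9 to 122.6 CPM in exoc3(RNAi) and 110.9 to 114.8 CPM in gfp(RNAi), with 3 called lower and 2 higher. The 2 intestine markers, both gata456 gene models, summed to 6.02 to 7.24 CPM in exoc3(RNAi) and 10.2 to 12.8 CPM in gfp(RNAi), and both were called lower. The part of the sort's makeup in the members' values was not tested.

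The genes most like each member were found by the root mean square (RMS) difference of log2 CPM over the 6 libraries, with every gene centred on its gfp(RNAi) mean, among the other 7700 genes of at least 10 CPM. The groups and libraries are shared by all genes, so likeness mostly reflects the size of the group difference. prog-1-10 and prog-1-6 were near to each other, with an RMS difference of 0.04, and each ranked among the 3 nearest genes of the other. For prog-1-5 the nearest genes were those annotated as carboxypeptidase N polypeptide 1 (RMS 0.03), mitochondrial glycine amidinotransferase (RMS 0.04) and pmp-9 (RMS 0.04), with agat-1 and agat-2 next. Without exoc3(RNAi) replicate 3 the 3 nearest were other genes, with RMS differences of 0.01 to 0.02, and the nearest listed genes were pmp-5, agat-1 and agat-2 at ranks 6, 7 and 9.

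The likeness of prog-1 to other genes turned on exoc3(RNAi) replicate 3. Over all 6 libraries its RMS difference was 0.42 to prog-1-5 and 0.50 to both prog-1-6 and prog-1-10, and prog-1-5 ranked 3215 by likeness to prog-1. Without that library the RMS difference was 0.14 to prog-1-5, 0.24 to prog-1-6 and 0.21 to prog-1-10, and prog-1-5 ranked 232.

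With all libraries the genes nearest to prog-1 were SMESG000030480.1 and SMESG000051649.1 (RMS 0.06 each) and SMESG000016720.1 (RMS 0.07), which have no description in the lists used here. The nearest listed gene was a collagen IV gene model (RMS 0.23), followed by the PIWI gene smedwi-2 (RMS 0.26) and a fibrillar collagen gene model (RMS 0.27). Without exoc3(RNAi) replicate 3 the listed genes nearest to prog-1 were instead prog-1-4 (RMS 0.03, rank 3), prog-1-7 (RMS 0.05, rank 9) and pmp-6 (RMS 0.07, rank 47).

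The RMS difference of prog-1-6 and prog-1-10 was 0.04 without that library too. For prog-1-6 and prog-1-10 the nearest genes besides each other were SMESG000050434.1 (RMS 0.03 to prog-1-6 and 0.05 to prog-1-10) and SMESG000074551.1 (RMS 0.04 to prog-1-6 and 0.05 to prog-1-10), also without a description. Among the listed genes, odc-1 and agat-2 came next for prog-1-6 at ranks 11 and 25, and a pmp-7 gene model and pmp-5 for prog-1-10 at ranks 17 and 20.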

How the data were processed

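RNA of X1 cells was sequenced single-end from stranded mRNA libraries. The authors converted reads with bcl2fastq 1.8.4, aligned them with STAR 2.7.2b to the dd_Smes_g4 genome, and counted uniquely aligned reads on the reverse strand with featureCounts 1.6.5. The authors deposited the raw counts of each library, per gene model and without normalisation. Reads shared by near-identical copies were not counted by the authors, so values of the prog-1 genes, which are a multigene family, are uncertain to that extent. Groups and replicate numbers came from the sample titles. The study calls the libraries biological replicates, and the p-values measure the spread between them.

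Counts were fitted in R 4.3.3 with edgeR 4.0.16: filterByExpr (minimum count 10, 16217 of 30917 gene models removed), TMM scaling, and the quasi-likelihood F test of all 6 libraries, group being the only term. Two-sided p-values were adjusted over 14700 genes by Benjamini-Hochberg, with a threshold of 0.05. Each SE is the log2 fold change divided by the root of its F statistic. Pairs of libraries had a chi-square per degree of freedom of 1.33 to 7.75 inside a group and 35.4 to 54.4 across groups. All were above sampling noise and were kept as separate. The closest pairs were only a little above it, with 1.36 for exoc3(RNAi) replicates 1 and 2 and 1.33 for gfp(RNAi) replicates 2 and 3. How far the spread of such pairs covers variation between animals was not tested.

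The members, lists and tests were chosen with earlier results of these data known. Named were the members, the other listed prog-1 genes, Smed-exoc3, the listed epidermal genes with the largest and smallest change, and the 3 genes nearest each member, overall and within the lists. The genes of the list that were high in exoc3(RNAi) replicate 3 were named after their values were seen. Alternatives were DESeq2 1.42.0, other scalings, filters and dispersions, a replicate block, and leaving out each library. Spread, likeness and list position without exoc3(RNAi) replicate 3 were added after the data were seen. Coordinates, transcript lengths and protein sequences were not analysed here.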

Additional observations from a re-analysis of the deposited data

How the results depend on the processing

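Over 13 alternatives prog-1-5 ranged between -1.10 and -1.01 on the log2 scale, prog-1-6 between -1.25 and -1.16 and prog-1-10 between -1.22 and -1.14, and each was called under every alternative run, a direction that the choice of the members fixes. prog-1 was called under 12 of 13. With robust dispersion estimation it stood at -0.56 with an edgeR adjusted p of 0.093 (range over the alternatives 1.1e-17 to 0.093), and leaving out single libraries gave -0.81, without exoc3(RNAi) replicate 3, to -0.44, without exoc3(RNAi) replicate 1. The fit called 7784 genes, 6642 to 8115 with a library left out, 6371 with DESeq2, 8106 with scaling by library size alone and 5612 with a filter at 10 CPM, which tested fewer genes (7817). Same-numbered libraries did not deviate together (correlations of -0.0083, 0.014 and -0.026). These values cannot show whether same-numbered samples were handled together. A replicate block called 7642 genes, 7506 of them shared, and gave -0.59 for prog-1. With 3 libraries a group, the spread that decides the prog-1 call rests on 1 library.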
